A study of Mus musculus with 12 samples.

Results

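Glycolysis and hypoxia genes were followed across 12 colonic epithelial RNA-seq libraries from mice. The set holds 35 of the 55304 gene symbols in the count files. They are listed glycolytic or hypoxia-induced genes taken by symbol. The rule uses no measured value, but the list was drawn up with earlier results of these data known. By role they are 2 carriers of glucose and lactate, 14 glycolytic enzymes, 3 regulators of glycolytic flow, 4 hypoxia-inducible factor (HIF) subunits and oxygen sensors, and 12 hypoxia-induced genes. All 35 had enough counts to be tested.

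All mice were C57BL/6 and 6 weeks old, with 4 mice in each of 3 groups, and RNA came from epithelial cells released from the whole colon with EDTA. Control OIL mice are labelled wild-type, received sunflower oil, and have source names that begin with EVCER. Ehf IKO mice share that prefix, are labelled as intestinal knockouts of Ehf and received tamoxifen. Control TMX mice are labelled wild-type and received tamoxifen, and their source is VilCreER, a line that carries a tamoxifen-activated Cre recombinase driven by the Villin promoter, which is active in intestinal epithelium. Ehf codes for a transcription factor with an ETS DNA-binding domain. Ehf IKO and Control OIL therefore differ in tamoxifen as well as in Ehf, Ehf IKO and Control TMX differ in line as well as in Ehf, and Control TMX and Control OIL differ in both drug and line, so these causes cannot be told apart within a single comparison. The series text gives the tamoxifen-treated Villin CreERT2 mice as a control for changes due to tamoxifen. Each of the 3 comparisons shares a group with the other 2.

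Glycolysis turns glucose into pyruvate, which lactate dehydrogenase can convert to lactate for export. When oxygen is short, HIF alpha subunits escape hydroxylation and breakdown, pair with ARNT and bind DNA at a short core sequence, raising glucose carriers, glycolytic enzymes, angiogenic factors and mitophagy genes. The surface of the colonic epithelium faces an almost oxygen-free lumen, and low oxygen and HIF activity are normal features of that surface.

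Libraries held 7421411 to 10344161 counted reads, of which the 35 genes took 0.356% to 0.584%. Levels are library-size-scaled counts (CPM) with TMM factors, with a biological coefficient of variation of 18.3% over genes. Ehf itself was counted at 385.3 to 480.7 CPM in Control OIL, 325.6 to 374.7 in Control TMX and 308.6 to 370.7 in Ehf IKO. Which exons were removed is not given in the labels, and whole-gene counts check neither the deletion nor the labels. All 10 epithelial markers were detected. Per library they summed to 6607 to 8176 CPM in Control OIL, 8098 to 8512 in Control TMX and 8489 to 10102 in Ehf IKO. Xist and Ddx3y read as female in replicates 1 and 2 and as male in replicates 3 and 4 of every group. Ehf IKO replicate 2 stood apart with counts in 36109 genes, against 23588 to 25966 in the other libraries.

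The core that HIF binds, ACGTG or GCGTG read on either strand, was searched in the 250 bases before each RefSeq start site on GRCm38.p6. RefSeq promoter entries were matched for 32 of the 35 genes, all except Epas1, Bnip3l and Ndrg1. The core lay in 25 of the 32 windows (78.1%), against 38.6% of 27025 mouse genes. Only 15 of the 32 member windows held no annotated exon base, and exon cover was not counted over all genes. ACGTG alone was in 46.9% of member windows and 16.5% of all windows, and the palindrome CACGTG, which contains ACGTG on both strands, in 9.38% and 6.04%. CCGGAAG, a core bound by ETS factors, was in 2 member windows, those of Aldoc and Higd1a (6.25%, against 7.07% of all genes). Member windows were richer in G and C, with a median of 62.8% against 52%, and the part of base composition in the core's share was not tested. A match describes the letters only. Windows or stretches are shown for Ldha, the highest member per length, and for 3 of the 4 genes that passed a test below, Ak4, Pfkfb3 and Higd1a. Capitals mark the core, and stretches run 5′ to 3′ along the gene's strand and hold no annotated exon for Ldha and Ak4. For Pfkfb3 and Higd1a, 30 bases around the core are shown because annotated exons cover 148 and 250 of the 250 window bases. The Ldha, Pfkfb3 and Higd1a stretches lie inside the gene models that were counted, so they are not upstream of the whole gene. The Ak4 stretch ends before its gene model begins.
Ldha, chr7:46845554-46845803, plus strand: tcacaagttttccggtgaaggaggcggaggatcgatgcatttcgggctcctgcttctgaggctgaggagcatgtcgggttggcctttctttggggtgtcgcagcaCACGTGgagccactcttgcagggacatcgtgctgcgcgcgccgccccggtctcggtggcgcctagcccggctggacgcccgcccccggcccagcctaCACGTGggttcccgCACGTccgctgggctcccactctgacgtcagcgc
Ak4, chr4:101419039-101419276, plus strand: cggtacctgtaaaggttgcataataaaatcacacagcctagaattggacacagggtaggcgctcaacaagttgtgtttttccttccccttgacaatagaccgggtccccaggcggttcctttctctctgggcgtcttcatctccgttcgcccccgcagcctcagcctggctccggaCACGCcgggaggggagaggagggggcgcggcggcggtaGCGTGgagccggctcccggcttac
Pfkfb3, chr2:11553973-11554002, minus strand: cctccgcgccgtgACGTGccaagctgtgac
Higd1a, chr9:121857848-121857877, minus strand: cggtctagcctGCGTGCGTGgcgttcgcgg
The Ldha window held 2 copies of CACGTG, the first letters of which lay 145 and 48 bases before the start, and a further CACGT at 34 bases. In Ak4 the core lay 74 and 36 bases before the start, in Pfkfb3 at 60 bases, and in Higd1a as a tandem pair at 70 and 66 bases.

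In levels per length (CPM divided by the exonic length in kilobases, mean of 12 libraries), the highest member was Ldha, which makes lactate from pyruvate, and the lowest was P4ha2, a collagen prolyl hydroxylase subunit, at 0.492. Aldoa, the ubiquitous aldolase, followed Ldha at 138.2 and Pkm, pyruvate kinase M, at 129. Tpi1 (triosephosphate isomerase) at 90.1, Gpi1 (glucose-6-phosphate isomerase) at 66.8, Hk2 (hexokinase 2) at 56.8 and Gapdh at 50.3 formed the next tier. The lowest enzymes were Aldoc, a further aldolase, at 3.18 and Pgam1, phosphoglycerate mutase, at 10.8. For Pgam1, 36.2% of its 50-base stretches also occur in other annotated genes, and reads that map to several places were not counted. Pgk1, phosphoglycerate kinase, shares 53.9% and was at 28.3 by its uniquely mapped reads. Of the higher enzymes, Gapdh shares 24.7%, Gpi1 15.8%, Pkm 14.2%, Ldha 9.26%, Aldoa 5.13% and Tpi1 4.18%, and Hk2 none. Another gene overlaps 15.3% of the exonic bases of Pkm, and reads that overlap several genes were not counted either. These ranks are therefore approximate. The highest hypoxia-induced genes outside the pathway were Higd1a at 27.0 and Vegfa at 23.9. Bnip3, a mitophagy receptor, was at 1.24, and Bnip3l, its close relative, at 8.48, with 36.9% and 20.8% of their sequence shared with other genes.

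**Figure D1:**
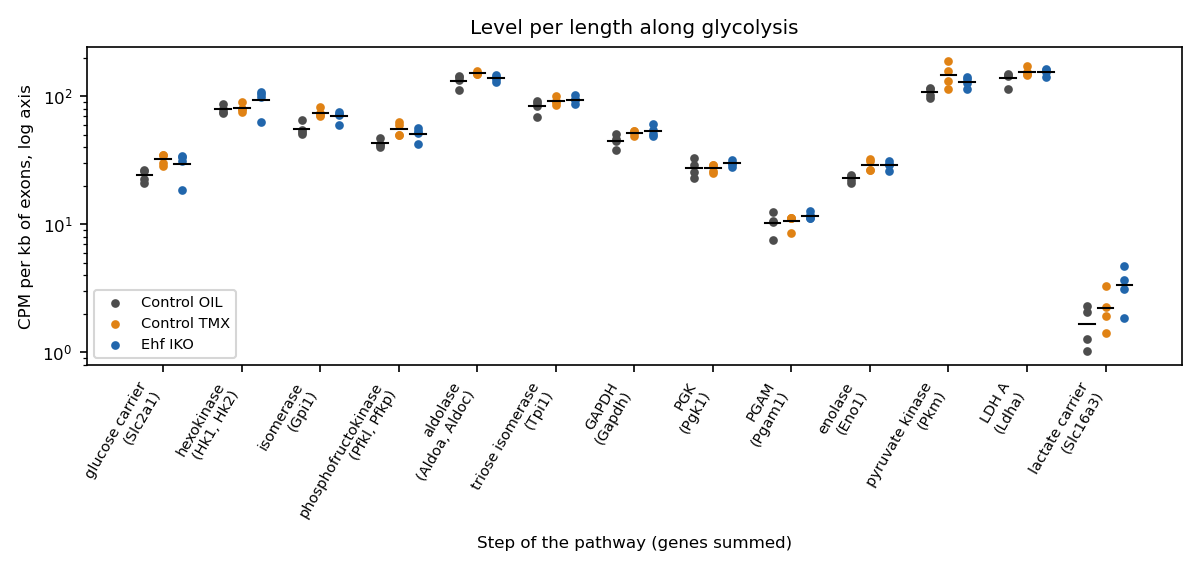
Levels along glycolysis, in CPM per kilobase of exons on a log axis, with the members of each step summed. Points are the 4 libraries of each group and bars the group means. Aldolase, pyruvate kinase and lactate dehydrogenase A are the highest steps, and the lactate carrier Slc16a3 is the lowest in every group.

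Within enzyme families, each library's level per length was split among the paralogues, including those outside the set. Ldha took 99.2%, 98.8% and 99.7% of lactate dehydrogenase in Control OIL, Control TMX and Ehf IKO (means of 4), and Pkm 87.5%, 89.9% and 89.1% of pyruvate kinase. Hk2 was the main hexokinase at 59.8%, 49.8% and 60.8%, and Hkdc1, a related hexokinase, held 10.3%, 19.8% and 11.9%. Slc16a1, the monocarboxylate carrier MCT1, made up 95.3% to 95.8% of the summed MCT level in the group means, and Slc16a3, MCT4, 3.33% to 4.04%. Epas1, which encodes HIF-2 alpha, held 51.6%, 59.9% and 52.9% of the HIF alpha level, and Hif1a 44.1%, 35.4% and 45.2%. Eno1 held 38.3%, 40.3% and 37.7% of enolase, below Eno3, outside the set, at 61.4%, 59.3% and 61.9%. Among the HIF prolyl hydroxylases, Egln2, also outside the set, had the largest share at 48.5%, 49.8% and 46.3%. The shares are descriptions and were not tested.

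Against Control OIL, 29 of the 35 genes were higher in Ehf IKO and 6 lower, with a median log2 fold change of 0.18, beside -0.01 over all 15743 genes tested. Higd1a and Ndrg1 rose and Ak4 fell (edgeR quasi-likelihood test, Benjamini-Hochberg adjusted p under 0.05). That is 2 of 35 that rose, where 0.921% of all genes did, and 1 that fell, where 0.762% did (1.68% in either direction). At an unadjusted p under 0.05 there were 11 (31.4%), 9 of them higher, against 11.9% of all genes. Against Control TMX, 14 were higher and 21 lower, the median was -0.05 (0.02 over all genes), and 1 gene, Pfkfb3, rose where 0.33% of all genes did. None fell where 0.47% did (0.8% in either direction), and 6 of 35 (17.1%) had an unadjusted p under 0.05 against 11.9% of all genes. DESeq2 called 1 member that rose and 1 that fell, beside 124 and 181 of all genes. Between the controls, 27 were higher in Control TMX than in Control OIL and 8 lower, with a median of 0.20 (-0.01 over all genes). No member was called by edgeR there, where 0.0381% of all genes rose and 0.0445% fell (0.0826% in all), although 13 (37.1%, against 12.9% of all genes) had an unadjusted p under 0.05. DESeq2 called 4 members that rose and 1 that fell between the controls, beside 121 and 75 of all genes. Against the mean of both controls, 22 were higher, 1 rose (Pfkfb3; 0.858% of all genes rose) and none fell (0.858%, or 1.72% in all), with 10 (28.6%, against 11.6% of all genes) at an unadjusted p under 0.05. DESeq2 called 2 members that rose and 2 that fell there, beside 251 and 220 of all genes. The medians of Ehf IKO and of Control TMX over Control OIL, 0.18 and 0.20, rest on the same 4 Control OIL libraries.

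**Figure D2:**
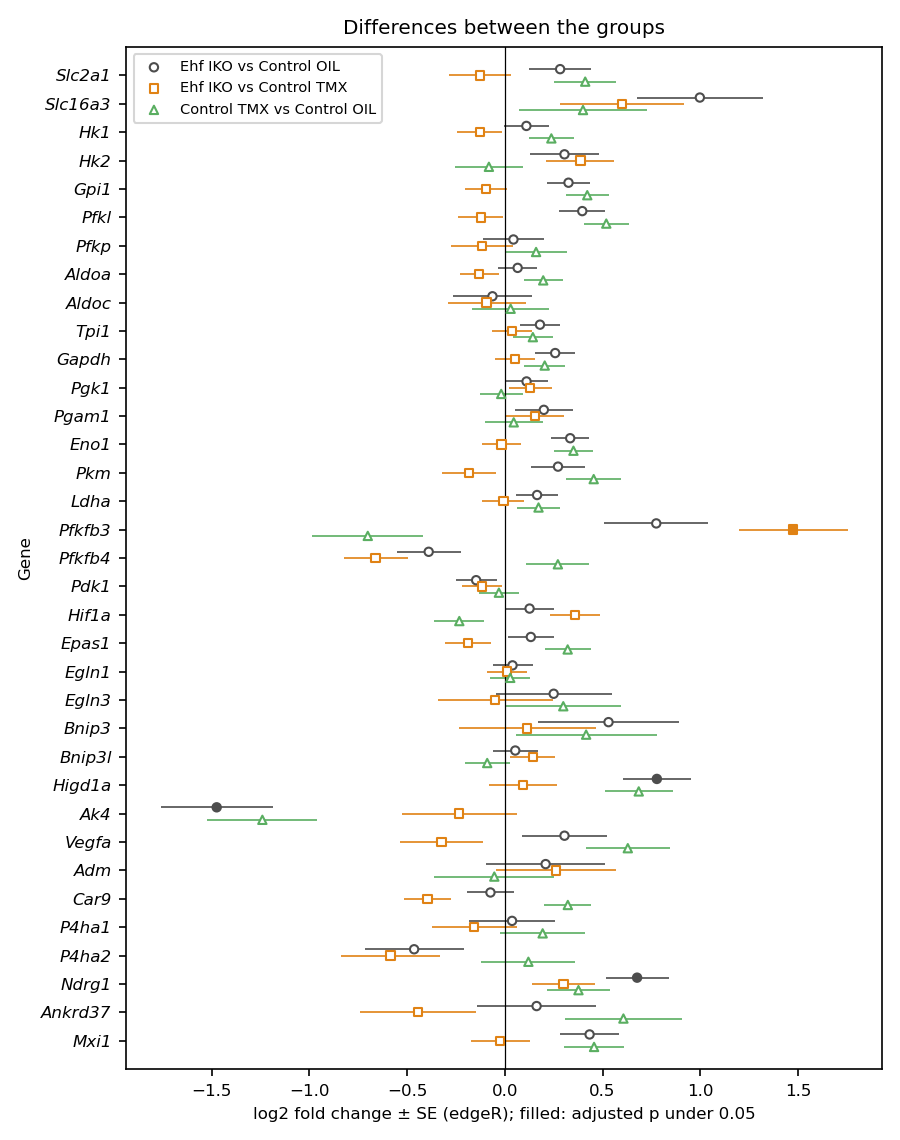
Log2 fold change ± SE of each gene in the 3 comparisons, from 1 edgeR fit of all 12 libraries, with filled symbols for an adjusted p under 0.05. Circles (Ehf IKO against Control OIL) and triangles (Control TMX against Control OIL) lie right of 0 for 29 and 27 genes, squares (Ehf IKO against Control TMX) for 14. The 4 filled symbols are Pfkfb3, Higd1a, Ak4 and Ndrg1.

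Among the regulators, Pfkfb3 and Pfkfb4 encode bifunctional enzymes that set the level of fructose-2,6-bisphosphate, the strongest activator of phosphofructokinase. Pfkfb3 was at 12.7, 8.96, 8.28 and 10.3 CPM in Control OIL replicates 1 to 4, at 6.83, 5.93, 5.61 and 6.36 in Control TMX, and at 18.9, 26.2, 15.96 and 7.66 in Ehf IKO. Every Ehf IKO library was above every Control TMX library, while Ehf IKO replicate 4 lay below all Control OIL libraries. Pfkfb3 rose in Ehf IKO by 1.48 ± 0.28 against Control TMX on the log2 scale (edgeR adjusted p = 0.0216) and by 1.13 ± 0.23 against the mean of both controls (adjusted p = 0.0199). Against Control OIL alone the difference was 0.77 ± 0.27 (adjusted p = 0.200), and between the controls it was -0.70 ± 0.28 (adjusted p = 0.325), with all Control TMX libraries below all Control OIL libraries. The call against Control TMX was lost in limma-voom (adjusted p = 0.0809) and without Control TMX replicate 1, 2 or 3 or Ehf IKO replicate 1, 2 or 3 (0.0537 to 0.0947). The call against the mean of both controls was lost without Ehf IKO replicate 1, 2 or 3 (edgeR adjusted p up to 0.0987). It was also lost in limma-voom, with the replicate number as a block and with a fibroblast marker score as a covariate. Without Ehf IKO replicate 4, Pfkfb3 also passed against Control OIL (1.01, adjusted p = 0.00648).

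Pfkfb4 was lowest in Ehf IKO, without an edgeR call. It was at 43.7, 48.5, 40.9 and 44.4 CPM in Control OIL, at 57.6, 57.6, 52.0 and 47.4 in Control TMX, and at 43.7, 40.6, 28.5 and 22.7 in Ehf IKO, so all Ehf IKO libraries were below all Control TMX libraries. The log2 difference was -0.66 ± 0.16 against Control TMX (edgeR adjusted p = 0.0799), -0.39 ± 0.16 against Control OIL (0.336) and -0.53 ± 0.14 against the mean of both (0.0909). DESeq2 called the first and the last (adjusted p = 0.0171 and 0.0306). As shares of the PFKFB family, Pfkfb4 held 59.01%, 65.2% and 49.3% and Pfkfb3 8.63%, 4.86% and 15.7% in Control OIL, Control TMX and Ehf IKO. Pdk1, a kinase that inactivates pyruvate dehydrogenase and so limits the conversion of pyruvate to acetyl-CoA, was at 55.8 ± 5.05, 54.7 ± 6.74 and 50.4 ± 3.23 CPM. Its 12 values, 55.2, 54.2, 62.8 and 50.9 in Control OIL, 64.2, 54.5, 51.4 and 48.7 in Control TMX and 49.7, 53.0, 46.0 and 52.7 in Ehf IKO, overlapped between all groups, and no adjusted p was below 0.666.

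**Figure D3:**
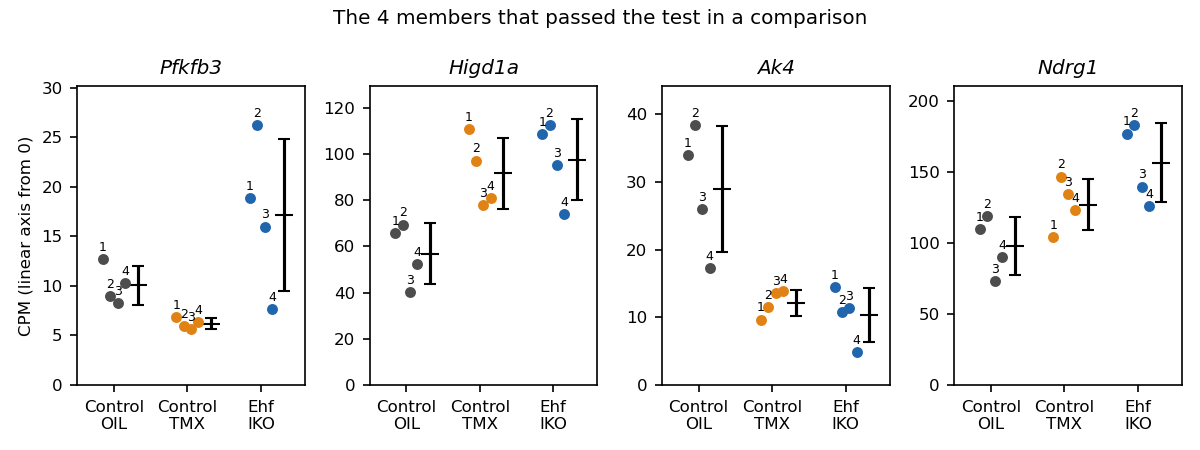
CPM of Pfkfb3, Higd1a, Ak4 and Ndrg1 in each library on linear axes from 0, with replicate numbers beside the points and bars for the mean ± SD of each group (n = 4). Higd1a and Ak4 sit at similar values in Control TMX and Ehf IKO and apart from these in Control OIL, while the Pfkfb3 values of Ehf IKO spread from 7.66 to 26.2.

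Of the 4 mitochondrial and mitophagy genes, Higd1a encodes a small inner-membrane protein that binds respiratory chain complexes. It was at 65.7, 69.4, 40.1 and 52.3 CPM in Control OIL, at 111, 97.1, 77.8 and 80.9 in Control TMX, and at 108.6, 112.5, 95.1 and 73.9 in Ehf IKO. Both tamoxifen-treated groups lay wholly above Control OIL. Higd1a rose in Ehf IKO against Control OIL by 0.78 ± 0.18 (edgeR adjusted p = 0.0370), the difference between the controls was 0.69 ± 0.17 (adjusted p = 0.158; DESeq2 0.0285), and against Control TMX it was 0.09 ± 0.17 (0.886). An opposite-strand gene shares 22.5% of its exonic bases, and reads were counted without strand. The call was lost in the fit of the 2 groups alone (0.0757) and without Control OIL replicate 3 or 4, Control TMX replicate 2 or Ehf IKO replicate 1, 2 or 3 (0.0509 to 0.118).

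Ak4, a mitochondrial adenylate kinase, was the only member to fall. It was at 33.95, 38.4, 26.0 and 17.3 CPM in Control OIL, at 9.63, 11.5, 13.6 and 13.8 in Control TMX, and at 14.4, 10.8, 11.3 and 4.84 in Ehf IKO. Control OIL lay wholly above both other groups. Ak4 fell by 1.47 ± 0.29 in Ehf IKO against Control OIL (edgeR adjusted p = 0.0212). Its difference was -1.24 ± 0.28 between the controls (adjusted p = 0.135; DESeq2 0.00439) and -0.23 ± 0.29 against Control TMX (0.814). The call against Control OIL was lost in the fit of the 2 groups alone (0.0757) and when Control OIL replicate 1, Ehf IKO replicate 2 or Ehf IKO replicate 3 was left out (0.0504 to 0.0658), and without Ehf IKO replicate 4 the fall between the controls passed (-1.24, 0.0241). Bnip3l was at 37.5, 33.3, 31.2 and 30.02 CPM in Control OIL, 30.4, 27.4, 33.1 and 32.7 in Control TMX and 35.1, 39.6, 30.1 and 32.1 in Ehf IKO, with overlap everywhere. Bnip3 was at 2.19 ± 0.720, 3.02 ± 1.16 and 3.19 ± 1.39 CPM, from only 11 to 42 counts per library.

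Among the 3 other hypoxia-induced genes, Ndrg1, a stress- and differentiation-linked cytoplasmic protein, was at 109.8, 119, 73.0 and 90.05 CPM in Control OIL, at 104, 146.8, 134.6 and 123 in Control TMX, and at 177, 183, 139.8 and 126 in Ehf IKO. All Ehf IKO libraries exceeded all Control OIL libraries and overlapped Control TMX. Ndrg1 rose by 0.68 ± 0.16 against Control OIL (edgeR adjusted p = 0.0467). It differed by 0.30 ± 0.16 against Control TMX (0.492), 0.38 ± 0.16 between the controls (0.346) and 0.49 ± 0.14 against the mean of both (0.0966; DESeq2 0.0422). The call was at the threshold: limma-voom gave 0.0508, the fit of the 2 groups alone 0.100, and it was lost without 9 of the 12 libraries taken singly, the exceptions being Control OIL replicate 2, Control TMX replicate 1 and Ehf IKO replicate 4. Mxi1, a MAX-binding antagonist of MYC, was at 37.3, 44.8, 42.5 and 41.6 CPM in Control OIL, 62.9, 55.7, 52.4 and 57.4 in Control TMX and 60.7, 74.0, 51.9 and 38.1 in Ehf IKO. Its Control TMX values all exceeded Control OIL (0.46 ± 0.15, edgeR adjusted p = 0.260), and Ehf IKO replicate 4 lay within the Control OIL range (0.43 ± 0.15, 0.209). Ankrd37, an ankyrin-repeat HIF target, ran from 2.79 to 10.6 CPM and passed in no comparison.

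Of the carriers, Slc2a1 encodes GLUT1, the basal glucose carrier. It was at 74.5, 92.4, 78.8 and 93.3 CPM in Control OIL, at 122, 123, 106.7 and 99.8 in Control TMX and at 118, 119.5, 110.3 and 65.3 in Ehf IKO. Control TMX lay wholly above Control OIL (0.41 ± 0.16, edgeR adjusted p = 0.308), and in Ehf IKO replicate 4 alone lay below all controls (0.28 ± 0.16 against Control OIL, 0.543). Slc16a3, which exports lactate, was at 5.45, 6.75, 10.96 and 12.2 CPM in Control OIL, 11.96, 17.7, 10.3 and 7.48 in Control TMX and 25.0, 19.6, 16.5 and 9.94 in Ehf IKO. Its difference of 1.00 ± 0.32 against Control OIL was the largest positive one among members (adjusted p = 0.174), and it was 0.60 ± 0.32 against Control TMX (0.494) and 0.40 ± 0.33 between the controls (0.646). Both passed against Control OIL when Ehf IKO replicate 4 was left out (adjusted p = 0.0303 for Slc2a1 and 0.0407 for Slc16a3).

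The 14 glycolytic enzymes were mostly a little above Control OIL in both other groups: 13 were higher in Ehf IKO (median 0.19) and 12 in Control TMX (median 0.18), while 5 were higher and 9 lower in Ehf IKO than in Control TMX (median -0.05). None passed in edgeR in any comparison, the smallest adjusted p being 0.113. Pfkl, the liver-type phosphofructokinase, was at 169.8, 189, 148 and 138.6 CPM in Control OIL, at 240.1, 262, 209 and 213 in Control TMX and at 226, 195, 229.5 and 198 in Ehf IKO, so both groups exceeded Control OIL without overlap. Its differences were 0.40 ± 0.12 against Control OIL (edgeR adjusted p = 0.113; DESeq2 0.0407), 0.52 ± 0.12 between the controls (0.122; DESeq2 0.00679) and -0.12 ± 0.12 against Control TMX (0.736). Eno1, enolase 1, showed the same arrangement at 123 ± 8.22, 158 ± 15.9 and 156 ± 11.8 CPM, with 0.33 ± 0.10 against Control OIL (0.113; DESeq2 0.0310), although 26.0% of its sequence is shared with other annotated genes. Gpi1 stood at 359.7 ± 40.5, 482 ± 34.6 and 451 ± 42.5 CPM and Pkm at 539 ± 49.0, 739 ± 159.5 and 651 ± 60.5.

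Ldha was at 485, 499, 475 and 376 CPM in Control OIL, 572, 512, 483 and 499 in Control TMX and 512, 528, 542 and 474 in Ehf IKO, and all groups overlapped. Aldoa was at 522, 511, 485 and 411 CPM in Control OIL, 576, 537, 543 and 552 in Control TMX and 495, 470.2, 538 and 513 in Ehf IKO. Only Control TMX and Control OIL did not overlap for Aldoa (0.20 ± 0.10, edgeR adjusted p = 0.420). Hk2, which phosphorylates glucose, stood at 319.5 ± 45.4, 302 ± 23.3 and 395 ± 108 CPM, with 482, 424, 437 and 236 in the Ehf IKO libraries, and without replicate 4 it passed against Control OIL (0.48, adjusted p = 0.0277) and against Control TMX (0.57, 0.0260). The other enzymes, Hk1, Pfkp, Aldoc, Tpi1, Gapdh, Pgk1 and Pgam1, differed by -0.13 to 0.26 on the log2 scale in the 3 comparisons.

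Of the HIF factors and oxygen sensors, Hif1a ran from 87.3 to 125 CPM in Control OIL (mean 108 ± 15.7), and was at 100, 91.8, 85.2 and 90.8 in Control TMX and 126, 142, 104 and 100.3 in Ehf IKO. The lowest Ehf IKO value lay just above the highest Control TMX value, and the difference was 0.36 ± 0.13 (edgeR adjusted p = 0.266). Epas1 was at 117, 114, 119.5 and 125 CPM in Control OIL, 167, 163, 145 and 120 in Control TMX and 140.2, 143, 132 and 106.7 in Ehf IKO. Its differences were 0.32 ± 0.12 between the controls (0.297) and -0.19 ± 0.12 against Control TMX (0.576). HIF alpha activity is set mainly through protein stability, which these counts do not measure. The HIF prolyl hydroxylase genes differed in spread: Egln1 was steady at 33.2 ± 0.704, 33.9 ± 2.49 and 34.1 ± 3.79 CPM, whereas Egln3, itself a HIF target, ran from 16.6 to 38.6 in Control OIL, from 27.0 to 41.0 in Control TMX and from 17.2 to 41.0 in Ehf IKO.

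The secreted, matrix and surface genes gave no call. Vegfa, the vascular growth factor, was at 64.3, 77.3, 81.9 and 100.4 CPM in Control OIL, 168, 146.7, 93.3 and 94.3 in Control TMX and 119, 114, 98.4 and 68.9 in Ehf IKO. Its difference between the controls was 0.63 ± 0.22 (edgeR adjusted p = 0.276), with replicates 1 and 2 of Control TMX far above replicates 3 and 4. Car9, the membrane carbonic anhydrase and a classical HIF target, was at 38.4, 42.5, 47.1 and 43.0 CPM in Control OIL, 65.1, 52.2, 51.2 and 46.1 in Control TMX and 46.9, 38.5, 41.4 and 35.7 in Ehf IKO. It differed by -0.40 ± 0.12 in Ehf IKO against Control TMX (0.174), with only the highest Ehf IKO value reaching into the Control TMX range. Adm (adrenomedullin), P4ha1 and P4ha2 reached at most 22.8 CPM in any library, and their groups overlapped in each comparison.

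Groups that did not overlap were counted as well. Ehf IKO lay wholly above Control OIL for 4 members (3.25% of all genes did) and wholly below for 1 (3.29%). It lay wholly above Control TMX for 2, Pfkfb3 and Hif1a (3.32%), and wholly below for 1, Pfkfb4 (3.87%). Control TMX lay wholly above Control OIL for 7, namely Slc2a1, Gpi1, Pfkl, Aldoa, Eno1, Higd1a and Mxi1 (3.68%), and wholly below for 2, Pfkfb3 and Ak4 (3.2%).

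**Figure D4:**
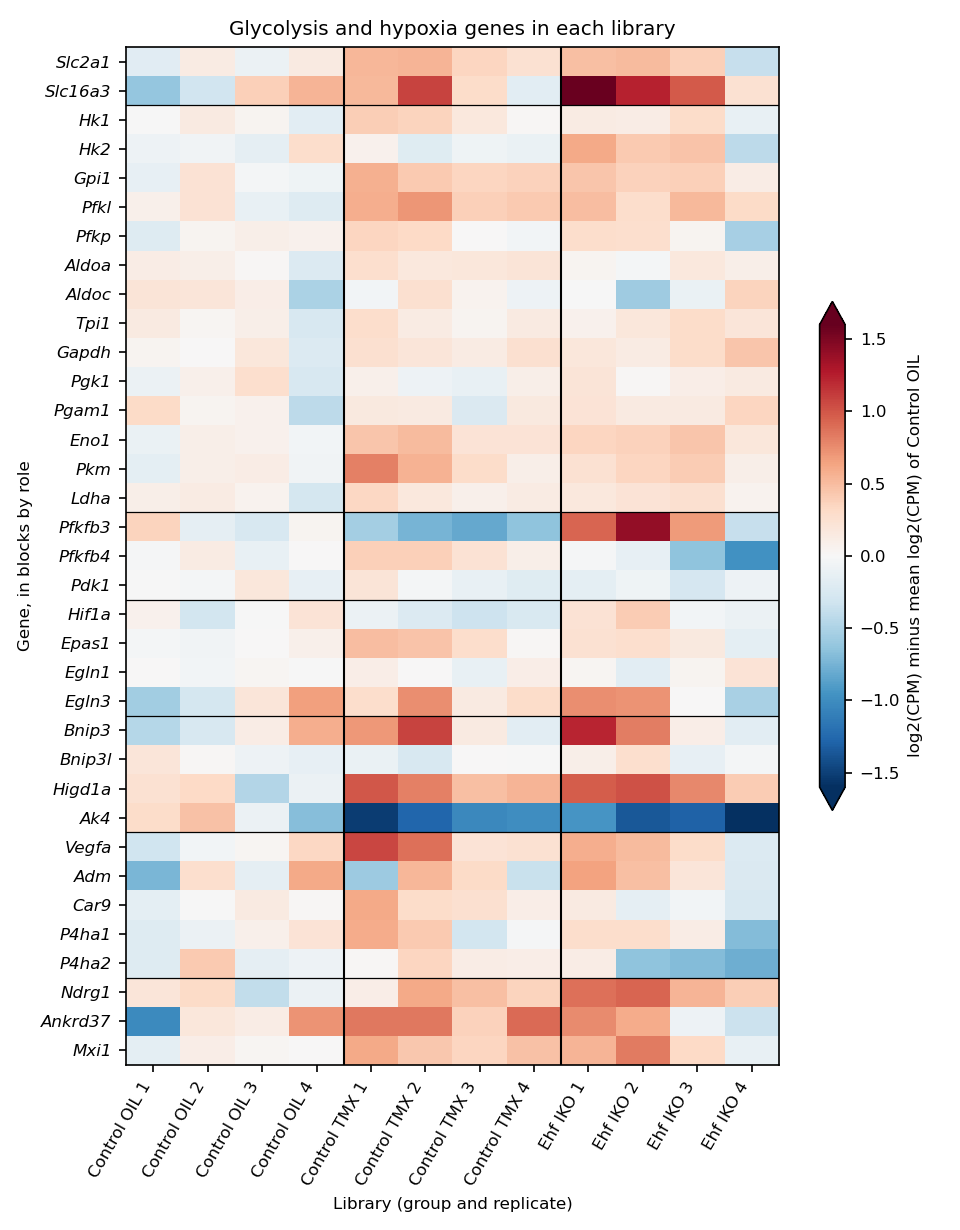
Log2 CPM of each gene in each library minus its mean in Control OIL, in blocks by role. Red is higher and blue lower, and the colour scale ends at 1.6, past which the 2 end colours do not change. Higd1a is red and Ak4 blue across both tamoxifen-treated groups, Pfkfb3 is blue in Control TMX and red in Ehf IKO replicates 1 to 3, and the hypoxia-induced genes vary between libraries of 1 group.

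Members differed widely in how much they varied among mice of 1 group. The pooled SD of log2 CPM within groups was 0.105 for Aldoa, 0.114 for Egln1 and 0.120 for Eno1, and 0.546 for Slc16a3, 0.513 for Ak4 and 0.491 for Egln3, with a median of 0.25 over members and 0.263 over all genes tested. The high values of Bnip3 (0.555), Ankrd37 (0.540) and Adm (0.503) came with lowest counts of 11, 20 and 17 reads in a library, so counting error adds to them. Aldoa and Eno1 were thus among the steadiest members, and the lactate carrier and Egln3 among the least steady.

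Some libraries stood at an end of their group for many members, and their share of this spread was not measured. Ehf IKO replicate 4 had counts in the fewest genes (23588). Mitochondrial genes took 21.27% of its counts and the gene Gm26917 took 11.22%, against 13.2% to 19.16% and 3.58% to 9.711% in the other Ehf IKO libraries. Over all libraries these shares ran from 10.69% to 26.33% and from 3.58% to 11.22%. Their part in the members' values was not tested. Ehf IKO replicate 4 was the lowest of its group for 25 of the 35 genes, whereas it was lowest for 34.7% of all genes tested. In Control TMX, replicate 3 was the lowest for 16 members (17.1% of all genes) and replicate 1 the highest for 19 (25.3%). Without Ehf IKO replicate 4, 8 members rose against Control OIL (Slc2a1, Slc16a3, Hk2, Eno1, Pfkfb3, Higd1a, Ndrg1 and Mxi1) and Ak4 fell. Calls over all genes in that comparison went from 145 to 453 that rose and from 120 to 258 that fell. Against Control TMX, 2 members rose without that library (Pfkfb3 and Hk2). Over all genes, calls there went from 52 to 80 that rose and from 74 to 82 that fell. A score for the 12 hypoxia-induced members (mean of log2(CPM + 0.5), centred per gene) took the values 0.312, 0.189, -0.085 and -0.452 in the 4 Ehf IKO libraries by number, and 0.167, 0.263, 0.009 and -0.003 in Control TMX. In Control OIL it was -0.267, 0.036, -0.168 and -0.001. The score of 10 markers of mature colonocytes was 0.396, 0.545, 0.185 and -0.476 in the same 4 Ehf IKO libraries, 0.284, 0.166, 0.103 and 0.016 in Control TMX and -0.234, 0.040, -0.769 and -0.256 in Control OIL. None of these markers was called in the 3 comparisons by edgeR, and 2, 1 and 2 had an unadjusted p under 0.05. Their median log2 difference was 0.41 in Ehf IKO and 0.41 in Control TMX over Control OIL and 0.00 between Ehf IKO and Control TMX, where the members' medians were 0.18, 0.20 and -0.05. The score of 10 proliferation markers was -0.114, -0.096, 0.190 and 0.455 in the Ehf IKO libraries. The proliferation score was 0.249, 0.219, 0.252 and 0.155 in Control OIL and -0.848, -0.723, 0.000 and 0.260 in Control TMX. All 10 proliferation markers were lower in Control TMX than in Control OIL (median log2 difference -0.48, 5 at an unadjusted p under 0.05). All 10 were higher in Ehf IKO than in Control TMX (median 0.37), and 4 were higher in Ehf IKO than in Control OIL (median -0.09). None was called by edgeR in these comparisons. The part of cell maturity or cycling in the members' values was not tested, and in bulk RNA fewer cells of a type and less RNA per cell cannot be told apart.

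**Figure D5:**
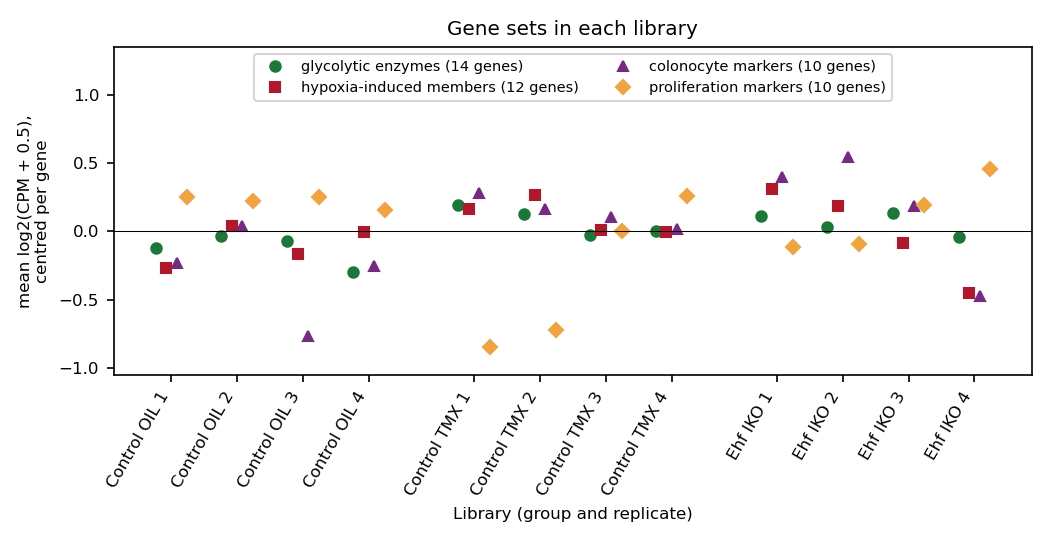
Scores of 4 gene sets in each library, as the mean over genes of log2(CPM + 0.5) centred per gene. In Ehf IKO the hypoxia-induced members and the colonocyte markers are highest in replicates 1 and 2 and lowest in replicate 4, where the proliferation markers are highest.

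The female libraries (replicates 1 and 2) were both above the male libraries (3 and 4) for 18 of 35 members in Ehf IKO (26.6% of all genes) and for 18 in Control TMX (26.2%), but for 8 in Control OIL (20.6%). They were both below for 4, 2 and 8 members (26.3%, 26.7% and 20.2% of all genes). With 2 mice of each sex per group, sex was not tested. With sex as a term in edgeR, an alternative chosen after seeing the data, Higd1a and Ndrg1 still rose and Ak4 fell against Control OIL and Pfkfb3 rose against Control TMX, and Pfkfb4 now fell against Control TMX (-0.69, adjusted p = 0.0177) and Higd1a rose between the controls (0.70, 0.0135).

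Markers of other cells moved with the groups too. The 10 fibroblast and matrix markers summed to 346.2 to 458.1 CPM in Control OIL, 465.8 to 784.2 in Control TMX and 451.6 to 1082 in Ehf IKO, and 9 of 10 were higher in Ehf IKO than in Control OIL, of which 2 rose. With their score as a covariate, none of Higd1a, Ndrg1 and Ak4 was called (adjusted p = 0.352, 0.230 and 0.184), at log2 differences of 0.83, 0.86 and -1.82, and 7 genes in all rose in that comparison. Endothelial markers, of which 3 of 7 were detected at a mean of 1 CPM or more, summed to 8.52 to 11.3 CPM in Control OIL, 11.2 to 17.4 in Control TMX and 11.6 to 19.2 in Ehf IKO. All 3 had higher values in Ehf IKO and in Control TMX than in Control OIL (median log2 differences 1.19 and 1.06), with no call. Smooth muscle markers summed to 14.8 to 40.3 CPM in Control OIL, 39.5 to 93.2 in Control TMX and 21.1 to 75.2 in Ehf IKO, and 5 of 6 were higher in Control TMX than in Control OIL (median 1.29), with no call and 5 at an unadjusted p under 0.05. Immune markers summed to 35.1 to 51.1, 27.6 to 40.8 and 37.1 to 67.2 CPM in the same order of groups, and 7 of 7 tested were higher in Ehf IKO than in Control TMX (median 0.51), with no call. Enteroendocrine markers summed to 180.9 to 294.5, 235.4 to 288.2 and 134.6 to 193.2 CPM, and 7 of 7 tested were lower in Ehf IKO than in Control TMX (median -0.62), of which 1 fell. Erythrocyte markers summed to 11.6 to 44.4 CPM over all libraries. Of 8 goblet markers, 5 were higher and 3 lower in Ehf IKO than in Control OIL, of which 1 rose. Against Control TMX, 6 goblet markers were higher and 2 lower, of which 1 rose and 1 fell. All 4 tuft markers tested were higher in Ehf IKO than in either control, and 1 rose against the mean of both. Of the 10 epithelial markers, 9 were higher in Ehf IKO than in Control OIL (median 0.25). Of these 10, 1 rose and 5 had an unadjusted p under 0.05. In Control TMX 9 were higher than in Control OIL (median 0.10), and 8 were higher in Ehf IKO than in Control TMX (median 0.12), with no call. The part of these cells in the members' values was not tested.

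Other genes of the pathway were taken from lists by role. Of 7 pentose phosphate pathway genes, G6pdx, the entry enzyme that makes NADPH, rose by 0.48 ± 0.11 on the log2 scale when set against both controls together (edgeR adjusted p = 0.0291), at 42.5 ± 4.76, 38.4 ± 4.18 and 56.5 ± 8.67 CPM. That call was lost without Control OIL replicate 2, Control TMX replicate 1, 2 or 3 or Ehf IKO replicate 2, 3 or 4 (0.0511 to 0.0788). It was also lost under an alternative that kept all libraries, where the adjusted p reached 0.214.

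Of 29 further hypoxia-induced genes tested, Tfrc, the transferrin receptor, rose against Control TMX (0.66 ± 0.15, edgeR adjusted p = 0.0494) and against the mean of both controls (0.56 ± 0.12, 0.0327), and Car12, another membrane carbonic anhydrase, fell against the mean of both (-0.66 ± 0.14, 0.0281). Tfrc was at 191 ± 52.2, 166 ± 8.77 and 262 ± 24.6 CPM and Car12 at 57.2 ± 10.7, 61.7 ± 7.44 and 37.5 ± 7.85. Against Control TMX the Tfrc call was lost without any single library except Control OIL replicate 1 or 4 (0.0538 to 0.181). Against the mean of both controls it was lost without any except Control OIL replicate 1 or 4 or Control TMX replicate 4 (0.0520 to 0.107). The Car12 call was lost without Control OIL replicate 2 or 4, Control TMX replicate 2 or Ehf IKO replicate 2 or 3 (0.0504 to 0.111). Both calls against the mean were also lost under alternatives that kept all libraries. There the adjusted p reached 0.175 for Tfrc and 0.159 for Car12. None of 14 other sugar, lactate and pyruvate carriers, 10 pyruvate dehydrogenase genes or 13 HIF partners passed in any of the 4 comparisons. By smallest unadjusted p these lists are represented by Slc2a4, Pdk2 and Hif3a. Slc2a4, the insulin-regulated glucose carrier, was at 1.37 ± 0.343, 1.82 ± 0.470 and 0.712 ± 0.240 CPM (edgeR adjusted p = 0.112 against Control TMX). Pdk2, a sister kinase of Pdk1, was at 20.9, 30.6 and 25.9 CPM on average (0.205 between the controls), and Hif3a, a HIF alpha paralogue, at 12.4 ± 6.50, 14.3 ± 5.81 and 5.82 ± 1.58 (0.116 against the mean of both).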

How the data were processed

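The members and gene lists were chosen with earlier results of these data known. Gene counts were deposited by the authors, 1 file per mouse: per the file headers, featureCounts (Subread 1.6.1) counted reads without strand on GRCm38 (Ensembl release 98), leaving out reads that map to several places or overlap several genes. STAR is named in the submitters' processing notes without a version. The deposited counts were fitted here with edgeR 4.0.16 in R 4.3.3 (TMM, filterByExpr, robust quasi-likelihood) in 1 model of all 12 libraries, with p adjusted by Benjamini-Hochberg over 15743 genes. The spread is that between the 4 libraries of a group, which the labels number as replicates. The total per library had a median of 8138352.5.

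Alternatives were DESeq2 1.42.0, limma-voom 3.58.1, other scaling and filters, the replicate number as a block, the compared groups alone, a fibroblast score as a covariate, no mitochondrial genes, each library left out, and, chosen after seeing the data, sex. Full values are given for members called in any contrast and, in each role group, for the member of smallest p and the 2 of highest TPM. TPM was computed from the counts and the exon lengths deposited with them. GENCODE M21 was used for sequence shared with other genes and for exons in the promoter windows. Of each further list, called genes are named, or else the gene of smallest p. The list of other glycolytic and gluconeogenic enzymes is not reported here. The fit was tested on simulated data.

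Summed marker CPM per library ran from 3457 to 9038 for colonocytes, 21796 to 42400 for goblet cells, 383.0 to 1073 for proliferation and 43.1 to 102.8 for tuft cells. No list was at 0 in all libraries.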

Additional observations from a re-analysis of the deposited data

Results flagged for a closer look

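In each group of 4 mice, the gap of the highest or lowest library to its nearest neighbour was divided by the range of the group. The ratio passed Dixon's critical value in 5 of 105 groups (35 genes in 3 groups), and chance flags about 1 in 20. Slc2a1 in Ehf IKO replicate 4 was low at 65.28 CPM. Aldoc in Control OIL replicate 4 was low at 7.208 CPM, and Pgam1 in Control TMX replicate 3 was low at 16.95 CPM. P4ha2 in Ehf IKO replicate 1 was high at 3.494 CPM. Ankrd37 in Control TMX replicate 3 was low at 7.309 CPM.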

How the results depend on the processing

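For single genes (the 35 members and 7 other pathway genes), 3494 of 3648 values kept their call, 83 lost it, 71 gained it and none that was called changed direction. Counts are given as rose/fell for Ehf IKO against Control OIL, Ehf IKO against Control TMX, Control TMX against Control OIL and Ehf IKO against the mean of both controls, in this order; the compared groups alone give no value for the last. As reported, they were 2/1, 1/0, 0/0, 1/0 for members and, in the first 3, 145/120, 52/74, 6/7 for all genes. With DESeq2, they were 4/1, 1/1, 4/1, 2/2 for members and 316/218, 124/181, 121/75, 251/220 for all genes. Without a filter, they were 4/1, 1/1, 6/1, 4/2 for members and 435/289, 198/302, 270/171, 525/306 for all genes. With a mean log2 CPM of at least 1, they were 1/1, 1/0, 0/0, 1/0 for members and 129/114, 53/75, 0/5, 126/127 for all genes. With limma-voom, they were 1/1, 0/0, 0/0, 0/0 for members and 128/102, 50/66, 5/8, 119/105 for all genes. With the replicate block, they were 2/1, 1/0, 0/0, 0/0 for members and 92/81, 32/40, 9/9, 77/71 for all genes. With the compared groups alone, they were 0/0, 1/0, 0/0 for members and 56/56, 54/83, 7/6 for all genes. With the fibroblast score, they were 0/0, 1/0, 0/0, 0/0 for members and 7/13, 29/40, 0/1, 30/28 for all genes. With sex, they were 2/1, 1/1, 1/0, 3/1 for members and 174/148, 66/103, 25/13, 133/144 for all genes. DESeq2 size factors and leaving out mitochondrial genes kept each of these counts within 1.5 times. Without a filter, the median over all genes was 0.15, 0.14, 0.00 and 0.18 and that over members 0.15, -0.10, 0.22 and 0.05. Leaving out each library in turn gave members that rose and fell from 0 to 8 and 0 to 1, 0 to 2 and 0 to 1, 0 to 1 and 0 to 1, 0 to 3 and 0 to 1, and all genes from 53 to 453 and 50 to 258, 19 to 80 and 31 to 82, 0 to 44 and 3 to 42, 55 to 310 and 53 to 212. Same-numbered libraries deviated together with correlations of -0.406 to 0.405, and of 0.1 to 0.405 between Control TMX and Ehf IKO. The numbers were not taken as a pairing, although replicates 1 and 2 read as female and 3 and 4 as male in every group. Under the block Pfkfb3 was no longer called in the last comparison (edgeR adjusted p = 0.0503). The cause of these changes was not tested. Bnip3, Adm and P4ha2 have few counts, which limits what their values can show.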
